A study of Homo sapiens with 3 samples.

Results

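The genes described here are the cytochrome P450 enzymes and the enzymes that attach glucuronic acid, glutathione or sulfate to small molecules. They were chosen by symbol among the protein-coding genes of the deposited table: numbered CYP genes, UGT1 and UGT2 genes, cytosolic and mitochondrial glutathione transferases (GST) and sulfotransferases (SULT). Of 29960 genes listed, 78 met that rule, comprising 50 CYP, 12 GST, 9 SULT and 7 UGT genes, and each of the 7 UGT genes was of the UGT1A locus. The cells were of 5637, an established human bladder cancer line, as the parental wild-type line (5637P) and as a gemcitabine-resistant derivative (5637GR). Gemcitabine is a cytidine analog that blocks DNA synthesis. The labels state that resistance arose through acute gemcitabine treatment, while the study's methods describe repeated exposure to increasing doses followed by maintenance without drug. The RNA is labelled as untreated in both groups, and both were grown in RPMI with serum. Each library is a single-cell clone, so a difference between clones is part of any difference between groups. Sample labels were given for 1 parental and 2 resistant libraries, which were compared. The paper describes 3 clones per group, and nothing in the labels ties the parental clone to a resistant one.

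Cytochrome P450 enzymes insert oxygen into lipids, steroids, vitamins and drugs, using electrons passed on by NADPH-cytochrome P450 reductase in the endoplasmic reticulum or by ferredoxin in mitochondria. Many are best known from liver, but others act in epithelia on retinoids, vitamin D and fatty acids and so set the local level of those signals. UGT, GST and SULT enzymes then make such molecules, or drugs, more soluble by conjugation. The aryl hydrocarbon receptor (AHR) with its partner ARNT, the antioxidant factor NFE2L2 and nuclear receptors for retinoids, vitamin D and xenobiotics are textbook regulators of genes in these families.

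Promoter sequence is shown for the 3 CYP genes with the most reads among those at least 2-fold lower in both resistant clones, and for GSTP1, the most abundant gene of the whole set. Each line holds the 250 bases before the RefSeq start (GRCh38.p14, 5′ to 3′ on the gene's own strand), with motif matches in capitals. The motifs searched on both strands were the AHR and ARNT core GCGTG, the antioxidant response element core TGACNNNGC and the nuclear receptor half-site AGGTCA, which reads TGACCT on the other strand. The windows are chr2:72147863-72148112 on the minus strand for CYP26B1, chr19:41192969-41193218 on the plus strand for CYP2S1, chr2:127220300-127220549 on the minus strand for CYP27C1 and chr11:67583562-67583811 on the plus strand for GSTP1.
CYP26B1: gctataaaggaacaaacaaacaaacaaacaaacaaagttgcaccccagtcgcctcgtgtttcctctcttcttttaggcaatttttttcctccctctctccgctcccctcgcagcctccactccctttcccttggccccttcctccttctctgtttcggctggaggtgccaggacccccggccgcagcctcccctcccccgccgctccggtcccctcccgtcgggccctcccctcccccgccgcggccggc
CYP2S1: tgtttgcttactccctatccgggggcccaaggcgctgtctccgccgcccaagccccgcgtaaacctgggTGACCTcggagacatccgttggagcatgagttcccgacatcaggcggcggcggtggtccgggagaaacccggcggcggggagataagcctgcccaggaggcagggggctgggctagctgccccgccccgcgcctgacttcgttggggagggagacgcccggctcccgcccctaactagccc
CYP27C1: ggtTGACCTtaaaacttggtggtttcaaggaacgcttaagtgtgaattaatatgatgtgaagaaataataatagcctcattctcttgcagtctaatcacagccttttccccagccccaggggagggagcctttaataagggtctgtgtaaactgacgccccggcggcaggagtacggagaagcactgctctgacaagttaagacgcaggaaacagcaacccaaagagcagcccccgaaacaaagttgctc
GSTP1: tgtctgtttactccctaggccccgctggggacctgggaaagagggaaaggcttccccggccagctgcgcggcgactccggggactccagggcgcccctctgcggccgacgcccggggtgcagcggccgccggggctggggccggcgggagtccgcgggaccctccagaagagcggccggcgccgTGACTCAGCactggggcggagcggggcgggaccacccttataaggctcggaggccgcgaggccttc
In these windows GSTP1 held 1 antioxidant response element core (TGACTCAGC, 66 to 58 bases before the start). CYP2S1 and CYP27C1 each held 1 nuclear receptor half-site on the opposite strand, and CYP26B1 held none of the 3 motifs. Of 60 genes of the set with such a window, 25.0% held the half-site, 15.0% the antioxidant core and 26.7% the AHR core, against 12.2%, 11.1% and 31.9% of 27305 promoters. A match of letters is a description and not evidence of binding, and 18 genes of the set had no window in the table.

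Many of the 78 genes had few or no reads, and 43 stayed under 10 reads in all 3 libraries. No read was counted in any library for 11 of them, and 37, these included, had at most 3 reads in every library, the count treated as the floor of detection. That floor corresponds to 0.213, 0.184 and 0.172 CPM (counts scaled to a common library size) in parental 1, resistant 1 and resistant 2, and it covers counting error only. Classical liver enzymes were among them. CYP3A4, the main drug-oxidizing enzyme of liver, had 0, 1 and 0 reads. CYP2C8 and CYP2A6 had 0 reads in each library, and CYP2E1, the ethanol-oxidizing enzyme, had 0, 0 and 2. Hepatocyte markers likewise sat near 0, their 4 measured genes summing to 0, 0.0612 and 0.632 CPM in parental 1, resistant 1 and resistant 2. Epithelial markers were high, with EPCAM at 285, 338 and 291 CPM in the same order, whereas the urothelial gene UPK3A had no reads. Of the 78 genes, 35 reached 10 reads in at least 1 library and were tested (20 CYP, 9 GST, 3 SULT and 3 UGT), and the others were described by counts alone.

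Levels were compared between genes per length, as FPKM. GSTP1, the pi-class glutathione transferase abundant in many epithelia and tumors, dominated the set. Its FPKM was 932 in the parental library and 491 and 427 in the resistant libraries, at rank 23, 64 and 76 of all genes listed. It alone took 79.4% of the set's reads in parental 1, 71.3% in resistant 1 and 67.0% in resistant 2. GSTO1, an omega-class enzyme that reduces dehydroascorbate, and GSTK1, the kappa-class enzyme of mitochondria and peroxisomes, came next with mean FPKM of 39.5 and 35.1. The highest CYP gene by mean FPKM was CYP2S1 at 8.07, followed by CYP2R1 at 6.14 and CYP20A1, a P450 of unsettled substrate, at 5.21. The 3 tested SULT genes stayed at or below 0.425 FPKM in every library.

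**Figure D1:**
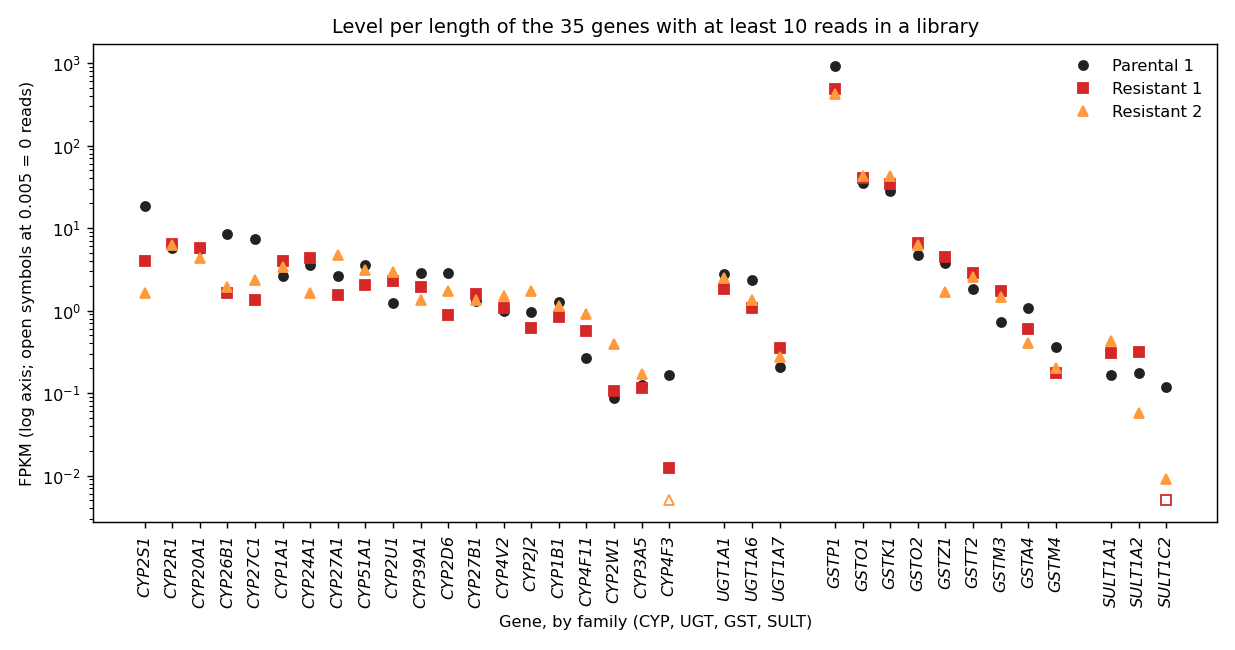
FPKM on a log axis (vertical) of the 35 tested genes grouped by family (horizontal), with 1 symbol per library and open symbols for a count of 0. GSTP1 stands above every other gene of the set in all 3 libraries, between 427 and 932 FPKM. The SULT genes stay at or below 0.425 FPKM, a range that some CYP genes such as CYP4F3 share.

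Resistant clones were then compared with the parental clone to ask which of these enzymes differ with gemcitabine resistance. The comparison used edgeR's quasi-likelihood test across 15860 genes with Benjamini-Hochberg adjustment. With 1 parental library the spread comes from the 2 resistant clones and the parental library is assumed to vary like them. CYP26B1 and CYP2S1 fell in the labelled resistant clones at an adjusted p under 0.05, and no gene of the set rose. That is 2 of 35 tested genes lower, where 0.649% of all tested genes were called lower, and 0 higher, where 0.41% were (1.06% in either direction). At an unadjusted p under 0.05 there were 7 genes, 6 of them lower, against 9.76% of all genes in either direction and 4.93% lower. The median log2 fold change of the 35 genes was 0.02, against 0.03 over all tested genes. In simulated data of this design, 43 of 100 genes changed 4-fold and 1 of 100 changed 2-fold were called. Every simulated gene and library had the same dispersion, and the changed genes had a mean of at least 1 CPM. The simulation thus could not probe the assumption about the parental library or genes of lower level. Even in it, 2-fold changes were seldom detectable.

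**Figure D2:**
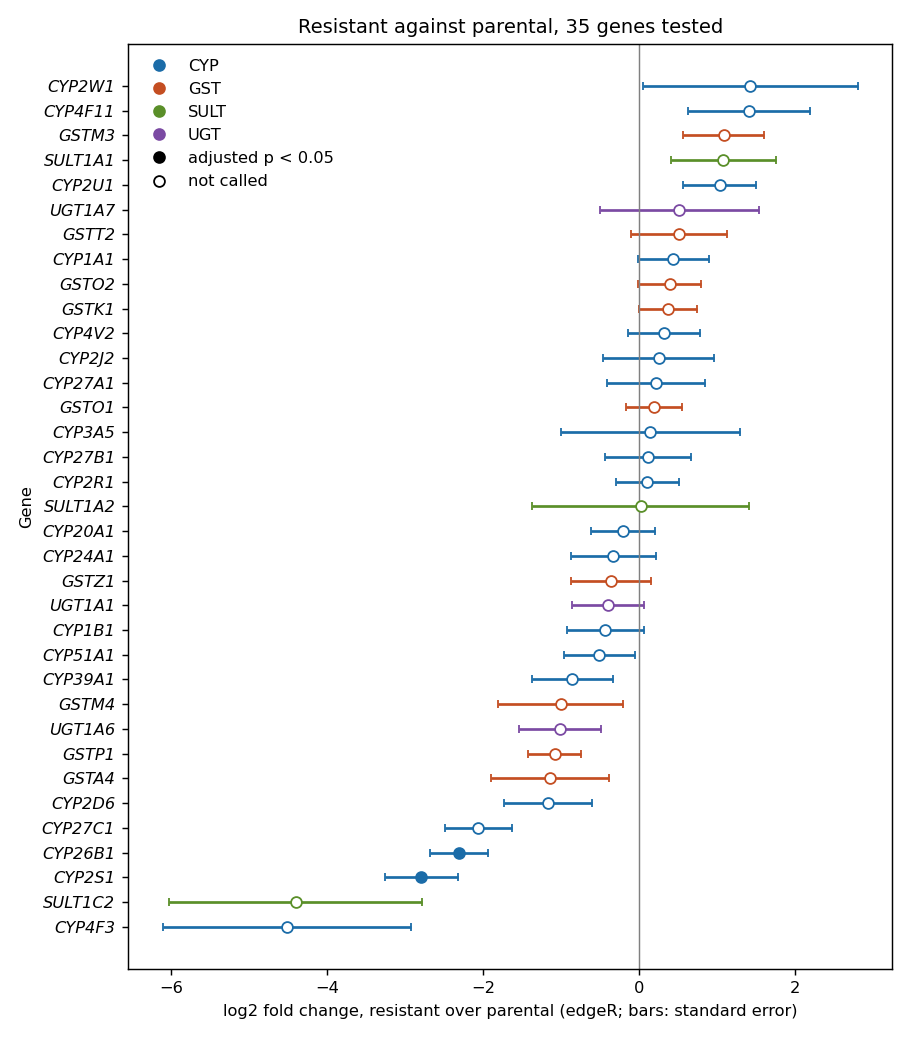
log2 fold change of resistant over parental (horizontal, edgeR, bars are the standard error) for each of the 35 tested genes (vertical), colored by family, with filled points at an adjusted p under 0.05. CYP2S1 at -2.79 and CYP26B1 at -2.31 are the 2 filled points, and CYP4F3 and SULT1C2 lie further left with wide bars because they rest on few reads.

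CYP26B1 (ENSG00000003137, chromosome 2, 72356367 to 72375167, minus strand), which oxidizes all-trans retinoic acid and so ends its action, had 581 reads in parental 1, 124 in resistant 1 and 158 in resistant 2. On the CPM scale these were 41.3, 7.59 and 9.08, so both resistant clones lay well below the parental clone and close to each other. It fell by 2.31 ± 0.37 (SE) on the log2 scale, 4.95-fold, with an edgeR adjusted p of 0.016. CYP27C1 (ENSG00000186684, chromosome 2, 127941696 to 127977654, minus strand), which desaturates retinol, had 33.6, 5.69 and 10.4 CPM from 473, 93 and 181 reads. Both resistant clones lay at least 2-fold below the parental clone, as in 3.73% of all tested genes. The log2 fold change of -2.06 ± 0.43 (SE) missed the threshold with an edgeR adjusted p of 0.0577. CYP27C1 passed under 4 of the 6 other scalings, filters and tools tried. Of the other retinoic acid hydroxylases, CYP26A1 had 2, 0 and 3 reads. In bulk RNA, fewer expressing cells and less RNA per cell cannot be told apart.

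Vitamin D enzymes in the same group did not pass the test. CYP2R1, which hydroxylates vitamin D in the first activating step, had 13.6, 14.4 and 14.8 CPM, with little spread among the 3 libraries. CYP27B1, which makes the active hormone, had 3.41, 3.92 and 3.45 CPM. CYP24A1, which degrades that hormone, had 169 reads in parental 1, 225 in resistant 1 and 93 in resistant 2. The resistant clones thus lay on either side of the parental clone, and their own log2 ratio, resistant 2 to resistant 1, was -1.37 (95% exact counting interval -1.73 to -1.01). Of 5 tested retinoid and vitamin D enzymes, 1 fell and 4 were not called, where 0.649% of all tested genes were called lower.

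Families CYP1 to CYP3 hold most drug- and carcinogen-oxidizing P450s. CYP2R1 is described above with vitamin D, and CYP2J2 and CYP2U1 are described below with fatty acids. Of the other 18 genes, 6 were tested and 1 fell, where 0.649% of all tested genes were called lower. CYP2S1 (ENSG00000167600, chromosome 19, 41698954 to 41713444, plus strand), an AHR-responsive P450 of surface epithelia, had 748, 177 and 79 reads, or 53.1, 10.8 and 4.54 CPM in parental 1, resistant 1 and resistant 2. It was the highest CYP by FPKM in the parental clone, and neither resistant clone approached that level. It fell by 2.79 ± 0.47 (SE) on the log2 scale, 6.92-fold, with an edgeR adjusted p of 0.0208. The resistant clones also differed from each other, at a log2 ratio to parental 1 of -2.29 in resistant 1 and -3.55 in resistant 2. With at least 50 reads required in a library, the adjusted p of CYP2S1 was 0.0508.

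Other AHR targets of these families were not called. CYP1A1, the best known of them, had 7.25, 10.5 and 9.19 CPM, and CYP1B1, which oxidizes estrogens and polycyclic hydrocarbons, had 6.89, 4.28 and 5.92 CPM. CYP2W1, a P450 found in some tumors, had 3, 4 and 16 reads, so that its resistant clones differed more from each other than resistant 1 did from parental 1. CYP2D6, which oxidizes many drugs, had 93, 32 and 68 reads, while its pseudogene CYP2D7P1 had 84, 29 and 61. These near-identical copies moved in the same proportions, and reads may be split between them, so the CYP2D6 value is uncertain. A further pseudogene, CYP2D8P1, had 29, 11 and 33 reads and did not follow them in resistant 2.

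Fatty acid and eicosanoid P450s showed no called change among 5 tested of 12. CYP4F3, which inactivates leukotrienes, had 12, 1 and 0 reads and CPM of 0.853, 0.0612 and 0. The parental CPM was 28.8 times the pooled resistant CPM, with a 95% exact counting interval from 4.26 to 1230, and the edgeR adjusted p was 0.341. CYP4F11, a hydroxylase of long-chain fatty acids, was the only tested gene of the set at least 2-fold higher in both resistant clones, at 0.781, 1.59 and 2.59 CPM from 11, 26 and 45 reads. Its log2 fold change of 1.41 ± 0.78 (SE) had an edgeR adjusted p of 0.635. CYP2U1, which hydroxylates arachidonic acid, had 6.25, 10.9 and 14.7 CPM with a log2 fold change of 1.03 ± 0.46 (SE) and an edgeR adjusted p of 0.504. CYP2J2, which forms epoxides of arachidonic acid, had 2.49, 1.53 and 4.37 CPM, with the resistant clones on opposite sides of the parental clone.

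Sterol and bile acid P450s were not called either, with 3 of 13 tested. CYP27A1, the mitochondrial sterol hydroxylase, had 6.89 CPM in parental 1, 3.86 in resistant 1 and 12.2 in resistant 2, a log2 ratio of resistant 2 to resistant 1 of 1.66 (95% exact counting interval 1.25 to 2.09). CYP51A1, which demethylates lanosterol in cholesterol synthesis, had 11.7, 6.36 and 10.0 CPM, and CYP39A1, an oxysterol hydroxylase, had 6.32, 4.04 and 2.93 CPM. Steroidogenic genes were at the floor, CYP17A1 with 0, 1 and 1 reads, apart from 7 reads of CYP19A1, the aromatase, in resistant 2. CYP20A1 had 15.1, 14.5 and 11.6 CPM and did not pass the test.

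**Figure D3:**
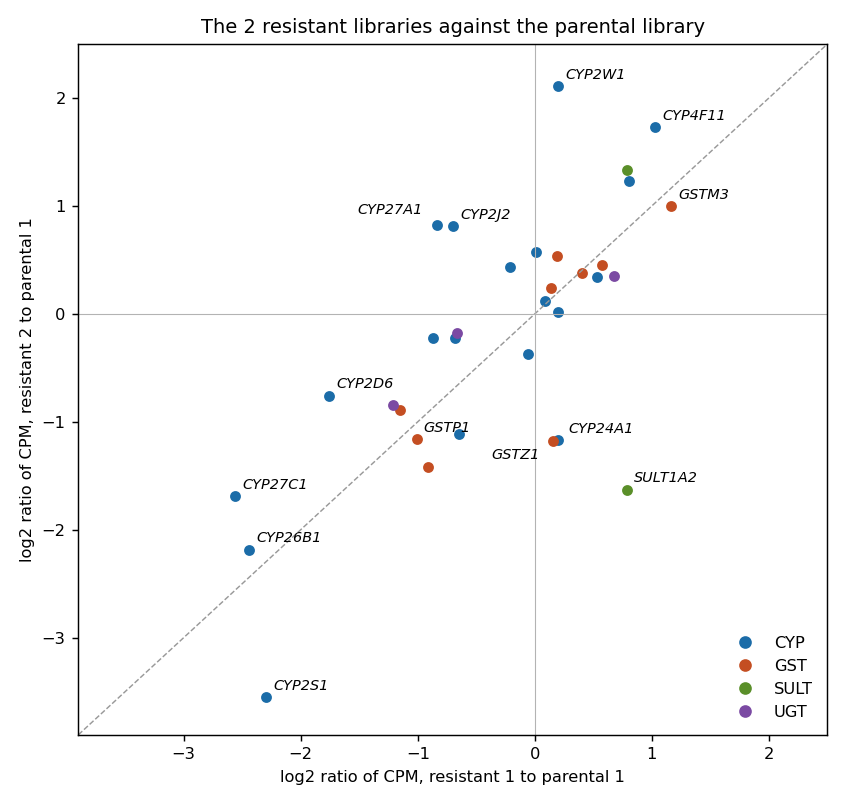
log2 ratio of CPM to parental 1 for resistant 1 (horizontal) and resistant 2 (vertical), 1 point per tested gene with reads in all 3 libraries, colored by family; the dashed line marks equal ratios and both axes share parental 1. CYP26B1, CYP2S1 and CYP27C1 sit far into the lower left, while CYP24A1 and GSTZ1 fall below the line and CYP27A1, CYP2J2 and CYP2W1 above it.

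Of the glutathione transferases, 9 of 12 were tested and none was called. GSTP1 (ENSG00000084207, chromosome 11, 67351066 to 67354131, plus strand) had 22683 reads in parental 1, 13075 in resistant 1 and 12524 in resistant 2. Both resistant clones lay just beyond 2-fold below the parental clone, with log2 ratios of -1.01 and -1.16. The log2 fold change of -1.08 ± 0.34 (SE) had an edgeR p of 0.00837 before and 0.253 after adjustment. The 225 tested genes within 5 Mb of GSTP1 had a median log2 fold change of -0.31.

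Among the other abundant transferases, the resistant clones lay slightly above the parental clone. GSTO1 had 37.9, 41.7 and 44.7 CPM, and GSTK1 had 78.9, 89.8 and 114 CPM, with log2 fold changes of 0.19 ± 0.36 and 0.37 ± 0.37 (SE). GSTM3, a mu-class enzyme, had 3.05, 6.85 and 6.09 CPM, a log2 fold change of 1.08 ± 0.52 (SE) and an edgeR adjusted p of 0.556. GSTZ1, which isomerizes a maleyl intermediate of tyrosine breakdown, had 20.5, 22.9 and 9.08 CPM, so that resistant 2 alone was low, at a log2 ratio to resistant 1 of -1.33 (95% exact counting interval -1.61 to -1.06). GSTZ1 overlaps POMT2 on the opposite strand, which had 643, 755 and 896 reads, and whether the counting used strand is not given in the sources used here. GSTT2 had 29, 50 and 49 reads next to its near-identical copy GSTT2B with 3, 7 and 6, and the split between them is uncertain.

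The glucuronosyltransferases of the UGT1A locus share their last exons and overlap in the table, so their counts are not independent. UGT1A1, which conjugates bilirubin, had 135, 99 and 148 reads, and UGT1A6, which prefers small phenols, had 84, 42 and 58. UGT1A7 had 7, 13 and 11 reads. By CPM both resistant clones were below the parental clone for UGT1A1 and UGT1A6 and above it for UGT1A7, and none of the 3 was called. The remaining 4 had at most 3 reads in any library.

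Sulfotransferases were scarce. SULT1C2 had 11, 0 and 1 reads, a parental CPM 26.4 times the pooled resistant CPM with a 95% exact counting interval from 3.83 to 1135, and an edgeR adjusted p of 0.376. SULT1A1, the main phenol sulfotransferase of many tissues, had 19, 38 and 59 reads, while its close paralog SULT1A2 had 5, 10 and 2 and SULT2B1, which sulfates cholesterol, had 0, 5 and 2. Reads of SULT1A genes may be divided among near-identical copies.

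Across the set, the order of the 3 clones varied from gene to gene. Both resistant clones lay below parental 1 in 15 of 35 tested genes (34.4% of all tested genes) and above it in 14 (35.2%), and they fell on either side in 6. Both lay at least 2-fold below in 6 (3.73% of all genes), namely CYP26B1, CYP2S1, CYP27C1, CYP4F3, GSTP1 and SULT1C2, and at least 2-fold above in 1 (5.42%), which is 7 on either side (9.15%). The resistant clones were at least 2-fold apart from each other in 7 of the 35 (12.8% of all genes), which were CYP24A1, CYP27A1, CYP2J2, CYP2S1, CYP2W1, GSTZ1 and SULT1A2.

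The authors' group means gave smaller differences for the genes that stood out. The authors' mean of CYP26B1 was 517 normalized counts in the parental group and 218 in the resistant group, a log2 ratio of -1.24. That of CYP2S1 was 569 and 225, a log2 ratio of -1.33, and that of CYP27C1 was 397 and 155, a log2 ratio of -1.35. Set on the CPM scale, the authors' resistant mean lay above both labelled resistant clones for each of these 3 genes. It was 15.0 for CYP26B1, 15.5 for CYP2S1 and 10.6 for CYP27C1. A mean cannot lie above all of its members, so these means must take in a resistant clone without a label here. The paper describes 3 clones per group. On this scale such a clone lay above 15.0 CPM for CYP26B1 and 15.5 CPM for CYP2S1. If the resistant mean is of 3 clones, the unlabelled clone lay as far above it as both labelled clones together lay below it. The authors' parental mean was 35.1 CPM for CYP26B1 and 38.6 CPM for CYP2S1. For CYP27C1 the resistant mean was close to the 10.4 CPM of resistant 2. The falls called here thus describe the labelled clones, and whether other resistant clones fell was not tested. The authors' mean of GSTP1 had a log2 ratio of -0.60. For CYP4F11 the direction was opposite, with authors' means of 58.2 in the parental and 23.8 in the resistant group. In 7 of the 35 tested genes the group means moved against the 3 libraries, and over all tested genes 15.9% did. These means carry no SD, so none of these differences was tested.

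**Figure D4:**
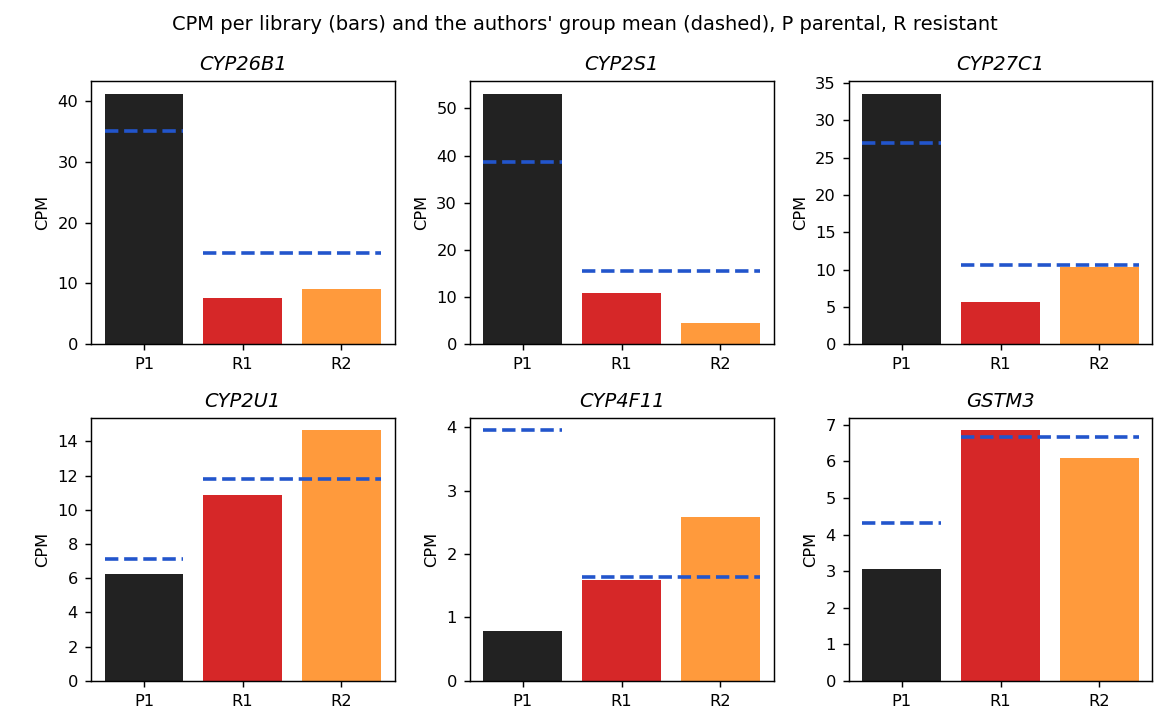
CPM (vertical axes from 0) of 6 genes in parental 1 (P1), resistant 1 (R1) and resistant 2 (R2) as bars, with the authors' group mean rescaled to CPM as a dashed line over each group. For CYP26B1, CYP2S1 and CYP27C1 the dashed resistant mean is above both resistant bars yet below the parental bar, and for CYP4F11 the dashed lines run opposite to the bars.

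Partner genes of these enzymes were examined by list. Of 50 tested genes in 4 lists (electron supply, cofactor supply, other drug-metabolizing enzymes, and receptors and transcription factors), 2 fell (0.649% of all tested genes) and none rose (0.41%), with a median log2 fold change of 0.03. The 6 electron donors were all tested and none was called, POR, the P450 reductase, having 107, 118 and 112 CPM. None of 11 cofactor genes and none of 15 tested other enzymes was called, the quinone reductase NQO1 having 139, 162 and 79.2 CPM. The 2 called genes were receptors or receptor partners among 18 tested. ARNT2, a dimerization partner of AHR-type factors, fell from 20.4 to 3.86 and 2.07 CPM, a log2 fold change of -2.78 ± 0.48 (SE) with an edgeR adjusted p of 0.0227. RARG, a retinoic acid receptor, fell from 108 to 36.0 and 23.3 CPM, a log2 fold change of -1.87 ± 0.37 (SE) with an edgeR adjusted p of 0.0435. The authors' means gave smaller log2 ratios, of -1.20 for ARNT2 and -1.33 for RARG. For ARNT2 they were 280 normalized counts parental and 121 resistant, where resistant 1 and resistant 2 held 63 and 36 reads. For RARG they were 1200 and 478, where resistant 1 and resistant 2 held 589 and 405 reads. Reads are not scaled for depth, unlike these means. The resistant mean lay above both labelled resistant clones for ARNT2 and between them for RARG.

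The other tested receptors and transcription factors were not called. AHR had 77.3, 96.7 and 139 CPM, ARNT 35.5, 42.1 and 43.1, and NFE2L2 73.7, 81.1 and 66.2. RARA, the other retinoic acid receptor measured in the list, had 57.8, 87.8 and 92.7 CPM and VDR, the vitamin D receptor, 49.9, 46.7 and 37.4. RXRA had 708, 436 and 463 CPM, with both resistant clones below the parental clone.

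Epithelial markers moved with these genes in part. Of 12 urothelial and epithelial markers, 10 were tested and 2 fell (0.649% of all tested genes): KRT5, the basal-cell keratin, from 272 to 9.79 and 13.8 CPM and UPK1B from 5.26 CPM to 0 in both resistant clones. The 12 summed to 10030 CPM in parental 1 and to 7504 and 7660 CPM in the resistant clones. Fibroblast collagens summed to 172, 155 and 145 CPM with LUM at 0 throughout, and blood and endothelial markers summed to at most 0.367 CPM in any library. For KRT5 the authors' means were 11544 normalized counts in the parental and 2047 in the resistant group. Parental 1 held 3829 reads, and resistant 1 and resistant 2 held 160 and 240. The authors' resistant mean of KRT5 was thus far above both labelled resistant clones. Those means differed by a log2 ratio of -2.49, against a fitted log2 fold change of -4.53. For UPK1B the authors' means were 70.1 normalized counts in the parental and 20.4 in the resistant group, a log2 ratio of -1.73. The authors' resistant mean of UPK1B was thus above 0, unlike both labelled resistant clones. The part of epithelial state in the CYP26B1 and CYP2S1 differences was not tested. The 3 libraries held 14475531, 15836788 and 17461941 counted reads, and among 12538 genes with at least 50 reads the resistant clones were 2-fold apart in 8.40%, against 10.5% and 14.4% for each from parental 1.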

How the data were processed

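RNA of 5637 clones was selected with poly-T beads and sequenced by the authors' provider. The submitters' processing notes name CASAVA 1.8 and the hg19 build. The aligner, the counting tool, the annotation and the library's strandedness are not given in the sources used here. The deposited table holds raw read counts per gene and library. It also holds FPKM, which the authors computed from those counts, the library total and a gene length. Its group signal is the authors' mean of counts divided by size factors, and columns with the authors' own log2 fold changes and p-values were not used. Columns of 6 values per gene from libraries without a sample label here were not used. Positions of genes are in the table's coordinates.

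Genes with at least 10 reads in at least 1 of 3 libraries (15860) were fitted with edgeR 4.0.16 (R 4.3.3, TMM factors 0.972, 1.03 and 0.997, quasi-likelihood test, Benjamini-Hochberg adjustment over all genes). The fit had 1 residual degree of freedom, a median prior of 9.72 and a biological coefficient of variation of 28.2%. A standard error is the log2 fold change divided by the square root of its F statistic. CPM are counts per library size after TMM. Counting intervals are exact binomial at 95%. Depth was 14475531 to 17461941 counts per library, and intervals and floors cover counting error only. DESeq2 1.42.0 and limma 3.58.1 (voom) were alternatives. On simulated data of 15394 genes that all had the common dispersion of the fit, edgeR made 1 false call among 15194 unchanged genes. Promoters were RefSeq windows (1 per gene, matched by symbol), read with Python 3.11.15 and pandas 2.3.3.

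Genes named were those called, those with both resistant libraries at least 2-fold from the parental library on the same side, the 3 highest by FPKM in each family, those whose resistant libraries were at least 2-fold apart, and called genes of the other lists. Members and lists were chosen with earlier results of these data known. Other genes given as background to a group, the half-site motif, CYP2D7P1, CYP2D8P1 and GSTT2B were chosen after their values were seen.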

Additional observations from a re-analysis of the deposited data

How the results depend on the processing

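CYP26B1 passed an adjusted p of 0.05 under every scaling, filter and tool tried, and CYP2S1 under all but the filter of at least 50 reads. Genes of the set called, 2 in the comparison as reported, numbered 4 with no filter beyond 1 read in a library (CYP27C1 and CYP4F3 added), 1 with at least 50 reads and 7 at an unadjusted p under 0.05, an alternative chosen after seeing the data. DESeq2's size factors in edgeR, total counts and DESeq2 each called 3 (CYP27C1 added), with 5 of the 35 genes given no adjusted p by DESeq2. An adjusted p under 0.1 also gave 3. Over the whole table, 168 genes were called as reported, 534 with no filter, 78 with at least 50 reads and 74 by limma-voom, and those 78 and 74 were all among the 168. Genes with both resistant libraries at least 2-fold from parental, 7 as reported, numbered 15 at 1.5-fold and 4 with at least 50 reads. SULT1A2 reversed under limma-voom, to a log2 fold change of -0.38, at an adjusted p of 0.985. The causes of these changes were not tested.

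CYP2S1 lay at -3.55 on the log2 scale without resistant replicate 1 and at -2.29 without resistant replicate 2. Leaving out a library leaves no residual degrees of freedom, so those values carry no test. Subtracting the median of tested genes within 5 Mb, chosen after seeing the data, moved GSTP1 from -1.08 to -0.78. No paired analysis was possible because nothing in the labels ties the parental clone to a resistant one. The parental spread was not measured, since 1 parental library was used. The authors' parental mean of CYP4F11, 3.95 on the CPM scale, differed from the 0.781 CPM of that library. In the simulated data 2-fold changes were seldom callable.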

Other observations

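Because CYP26B1, CYP27C1 and RARG were low together in the resistant clones, other genes of vitamin A handling were looked up after those values were seen, and for that reason no test is given. STRA6, a cell-surface receptor for retinol uptake, had 125 reads in parental 1 and 1 read in each resistant clone, or 8.88, 0.0612 and 0.0575 CPM. CRABP2, which carries retinoic acid to its nuclear receptors, ran the other way at 19.0, 134 and 84.8 CPM. ALDH1A3, which makes retinoic acid, had 956, 381 and 613 CPM.

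DHRS3, RDH10 and RARB differed between the resistant clones. DHRS3, which reduces retinaldehyde back to retinol, had 270, 196 and 110 CPM, and RDH10, which oxidizes retinol, had 40.1, 33.3 and 109 CPM. RARB had 3.69, 7.40 and 0.804 CPM, placing the resistant clones on either side of parental 1. LRAT, which stores retinol as esters, was alike in both resistant clones, at 9.09, 12.7 and 12.2 CPM. The authors' group means pointed the same way for STRA6 (119 normalized counts parental, 13.5 resistant) and CRABP2 (791.0 and 1513), but with smaller differences. Their log2 ratios were -3.05 for STRA6 and 0.93 for CRABP2, against -7.05 and 2.53 in the 3 libraries. Where the means take in the labelled libraries, the shared direction is not independent of them. Parental 1 held 267 reads of CRABP2, well under the authors' parental mean. Of 14 such genes listed, 12 were in the table and 9 had at least 10 reads in a library.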
